A study of Homo sapiens with 4 samples.

Results

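The 9 genes described here code for transcription factors that mark epithelial and neuroendocrine lineages, namely TP63, SOX2, KLF5, NEUROD1, INSM1, POU2F3, FOXA2, HNF4A and GATA6. They were taken by gene name from the deposited tables and are 9 of 51103 genes listed there, each with 1 row. Their levels bear on the identity of the cells, and the comparison asks whether they differed after REEP6 overexpression. RNA came from SCC-15, a human cell line labelled as oral squamous cell carcinoma, cultured in DMEM with fetal bovine serum. Both groups were this line. In the group called REEP6 (2 libraries) the cells had been infected with a lentivirus to overexpress REEP6, a membrane protein of the endoplasmic reticulum. In the group called NC (2 libraries) they were a negative control, and what those cells received is not described further in the labels, nor is whether either group was a single clone. Polyadenylated RNA was sequenced, and the libraries held between 12856256 and 15208629 counts assigned to genes, with 24021 to 24393 genes detected. Replicates of a group differed by more than counting noise (chi-square per degree of freedom 6.98 for REEP6 and 12.3 for NC). The labels do not say that they were separate cultures, so p-values measure the spread between these libraries, which may be technical. REEP6 itself had 20.0 and 20.9 FPKM in the REEP6 libraries, against 11.1 and 12.6 FPKM in the NC libraries (FPKM being a level scaled to gene length and library total), a log2 fold change of 0.82 ± 0.108 (SE, edgeR adjusted p 0.00119).

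Lineage factors of this kind bind regulatory DNA and hold whole gene programmes in place, so their presence or absence is widely used to assign a tumour to a cell of origin. In stratified squamous epithelium p63, the product of TP63, maintains basal cells and their keratins, together with SOX2 and KLF5, and TP63 and SOX2 are often gained together in squamous carcinomas. Neuroendocrine cells instead rely on factors such as NEUROD1 and INSM1, chemosensory tuft cells on POU2F3, and cells of endodermal origin such as gut and liver on FOXA2, HNF4A and GATA6.

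TP63 and SOX2 lie on the same chromosome, and the bases upstream of their annotated starts are shown because one gene was nearly silent in these libraries and the other was expressed and changed. TP63 (ENSG00000073282) spans chromosome 3, 189631416 to 189897279 on the plus strand, and SOX2 (ENSG00000181449) spans chromosome 3, 181711924 to 181714436 on the same strand (GENCODE 29, GRCh38). The 250 bases below come from the RefSeq promoter table (GRCh38.p14), plus strand, 5′ to 3′, and capitals mark matches to the motifs searched. The SOX2 stretch is chr3:181711675-181711924 and the TP63 stretch, ahead of the upstream start of the gene, is chr3:189631139-189631388. Bases before any start further inside TP63 are not covered.
SOX2: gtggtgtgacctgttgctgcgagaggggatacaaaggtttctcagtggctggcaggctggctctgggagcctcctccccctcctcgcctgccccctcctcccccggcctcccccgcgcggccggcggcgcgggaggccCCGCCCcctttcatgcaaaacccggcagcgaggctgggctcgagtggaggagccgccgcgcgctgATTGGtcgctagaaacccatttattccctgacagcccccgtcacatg
TP63: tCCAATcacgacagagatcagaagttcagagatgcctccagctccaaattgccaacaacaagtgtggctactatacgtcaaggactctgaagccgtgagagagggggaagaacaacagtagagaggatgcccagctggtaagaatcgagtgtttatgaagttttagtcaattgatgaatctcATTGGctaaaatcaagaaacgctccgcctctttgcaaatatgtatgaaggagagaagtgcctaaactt

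The motifs were the GC box GGGCGG, the CCAAT box CCAAT, the TATA box TATAAA, the POU octamer ATGCAAAT, the forkhead core TGTTTAC and a SOX core ACAATGG. Each was searched on both strands, and none is contained in another. The SOX2 stretch held 1 GC box on the minus strand, beginning 112 bases before the start, and 1 CCAAT box on the minus strand at 47 bases. The TP63 stretch held CCAAT boxes at 249 bases (plus strand) and 68 bases (minus strand) and no GC box. Of 35116 windows of the same length in the table, 42.6% held a GC box, 32.0% a CCAAT box, 10.7% a TATA box, 1.63% the octamer, 2.98% the forkhead core and 2.62% the SOX core. G and C made up 68.8% of the SOX2 stretch and 44.0% of the TP63 stretch, which placed them at percentiles 77.5 and 20.8 of these windows. A match describes the letters and does not show that a factor binds there.

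By level the 9 factors fell into a group of 3 that were clearly expressed and a group of 6 at or near 0. FOXA2, SOX2 and KLF5 were above 1 FPKM in all 4 libraries. GATA6 was between 0.0986 and 0.400 FPKM, and TP63, NEUROD1, POU2F3, HNF4A and INSM1 did not exceed 0.123 FPKM in any library. In each library the order ran FOXA2, SOX2, KLF5 and GATA6 from the top, and the ranges of SOX2, KLF5 and GATA6 over the libraries did not overlap one another. The ranges of FOXA2 and SOX2 overlapped over the 4 libraries, though FOXA2 was the higher within each group. Below GATA6 the neighbours could not be ordered: TP63, NEUROD1 and POU2F3 rested on 0 to 14 counts a library, and their ranges overlapped.

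**Figure D1:**
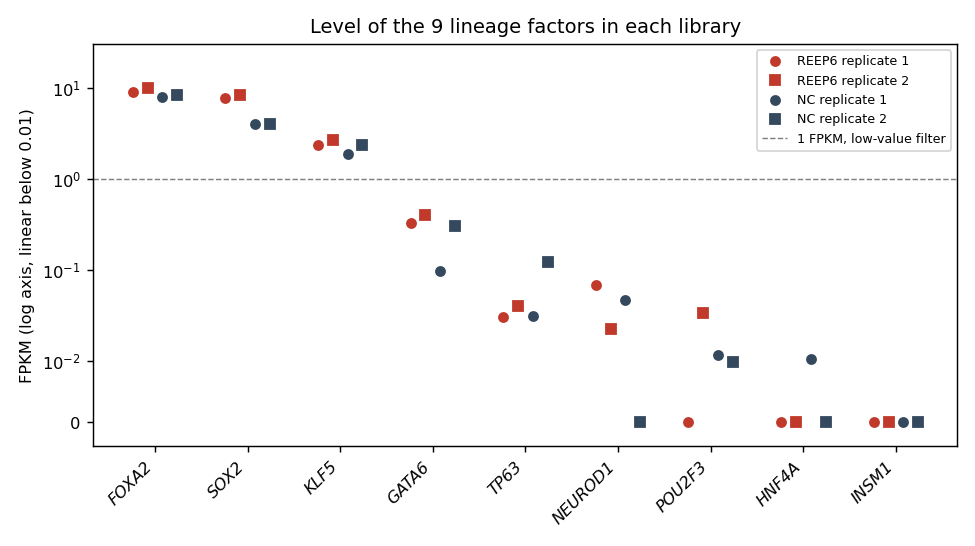
Level of each lineage factor in the 4 libraries, in FPKM on a log axis that is linear below 0.01, with REEP6 libraries in red and NC libraries in dark grey (circles replicate 1, squares replicate 2). FOXA2, SOX2 and KLF5 sit above the dashed line at 1 FPKM in every library, and the other 6 sit below it.

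Among the squamous factors, TP63 was almost undetected. It had 3 and 4 counts in the REEP6 libraries, or 0.0304 and 0.0403 FPKM, against 3 and 14 counts in the NC libraries, or 0.0313 and 0.123 FPKM. NC replicate 2 stood above the other 3, and the groups overlapped. These counts cover the whole gene, so the full-length and the N-terminally truncated forms of p63, of which basal squamous cells mainly make the truncated one, were not separated. SOX2, an HMG-box factor of foregut epithelium and also of neural progenitors, had 256 and 276 counts in the REEP6 libraries (7.70 and 8.26 FPKM), against 128 and 154 counts in the NC libraries (3.96 and 4.03 FPKM). Both REEP6 libraries were well above both NC libraries. KLF5 (ENSG00000102554, chromosome 13, 73054976 to 73077542, plus strand), a zinc-finger factor of basal and intestinal epithelium, had 120 and 139 counts in the REEP6 libraries (2.33 and 2.68 FPKM), against 94 and 138 counts in the NC libraries (1.88 and 2.33 FPKM). The lower REEP6 library and the higher NC library were at nearly the same level.

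Of the 3 factors that specify neuroendocrine and tuft cells, none had more than 3 counts in a library. NEUROD1 (ENSG00000162992, chromosome 2, 181673088 to 181680876, minus strand), a basic helix-loop-helix activator, had 3 and 1 counts in the REEP6 libraries and 2 and 0 in the NC libraries. POU2F3 (ENSG00000137709, chromosome 11, 120236640 to 120319944, plus strand), the tuft cell POU factor, had 0 and 3 counts in the REEP6 libraries and 1 and 1 in the NC libraries. The zinc-finger factor INSM1 (ENSG00000173404, chromosome 20, 20368121 to 20370949, plus strand) had 0 counts in all 4 libraries, which allows up to 3 counts a library, or 0.226 to 0.227 CPM with REEP6 and 0.197 to 0.233 in NC. That limit covers counting error only. No difference between the groups could be detected for these 3 genes at this depth.

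The endodermal factors were split. FOXA2 (ENSG00000125798, chromosome 20, 22581005 to 22585455, minus strand), a forkhead factor that opens chromatin in foregut and liver precursors, was the most abundant of the 9. It had 311 and 344 counts in the REEP6 libraries (9.03 and 9.93 FPKM), against 262 and 327 counts in the NC libraries (7.83 and 8.26 FPKM). The REEP6 libraries were the higher pair by a margin no larger than the difference between the REEP6 replicates. GATA6 (ENSG00000141448, chromosome 18, 22169443 to 22202528, plus strand), a zinc-finger factor of endoderm and heart, had 17 and 21 counts in the REEP6 libraries (0.326 and 0.400 FPKM), against 5 and 18 counts in the NC libraries (0.0986 and 0.300 FPKM). NC replicate 1 was low and NC replicate 2 was close to the REEP6 libraries. HNF4A (ENSG00000101076, chromosome 20, 44355700 to 44434596, plus strand), the nuclear receptor that drives hepatocyte and enterocyte genes, had 0 and 0 counts in the REEP6 libraries and 1 and 0 in the NC libraries.

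Genes that overlap the 9 factors in the annotation had few counts. SOX2 lies within the non-coding gene SOX2-OT, with no exonic base in common, and SOX2-OT had 0 or 1 counts a library. FOXA2 shares 70 exonic bases with a gene that had 0 counts in every library. NEUROD1 shares 236 exonic bases with CERKL, which had 1 to 5 counts, and GATA6 shares 240 and 321 bases with a pair of antisense genes that had at most 1 and 3 counts a library. Whether the counting used strand is not given in the sources used here.

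Compared between groups, SOX2 was higher with REEP6 overexpression and the other factors tested were not called. The test needs a level of at least 1 FPKM in 2 libraries, which 3 of the 9 factors passed. Of these, 1 was called higher and 0 lower (also 0 lower at an unadjusted p of 0.05, with DESeq2 and with limma), while among all 13077 genes tested 10.9% were called higher and 14.2% lower, together 25.0%, so changes were common in these libraries. SOX2 averaged 7.98 ± 0.396 FPKM in REEP6 cells and 3.996 ± 0.0477 FPKM in NC cells (SD, n = 2 each), 2.03-fold higher (log2 1.02 ± 0.153, SE; edgeR adjusted p 0.00194). FOXA2 averaged 9.48 ± 0.642 FPKM in REEP6 cells and 8.04 ± 0.305 FPKM in NC cells, with a log2 fold change of 0.26 ± 0.132 (SE, edgeR adjusted p 0.171). KLF5 averaged 2.51 ± 0.251 FPKM in REEP6 cells and 2.10 ± 0.320 FPKM in NC cells, with a log2 fold change of 0.27 ± 0.197 (SE, edgeR adjusted p 0.340). The median over all tested genes was -0.01. Counts called in each gene list below are to be read against the shares over all tested genes (10.9% higher, 14.2% lower). A gene could pass the filter through 1 group alone, as some listed genes did.

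**Figure D2:**
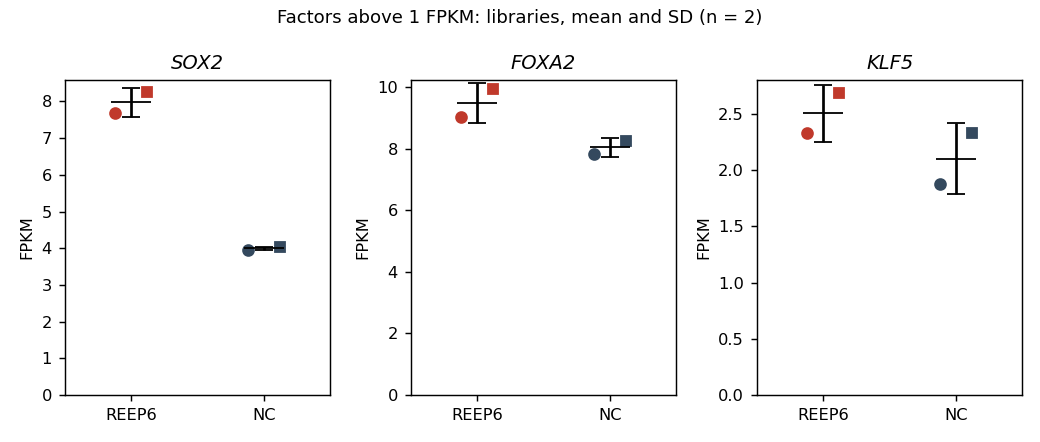
FPKM of SOX2, FOXA2 and KLF5 in REEP6 and NC cells on axes that start at 0 (circles replicate 1, squares replicate 2, bars mean and SD, n = 2). The SOX2 libraries stand apart at 7.70 and 8.26 FPKM with REEP6 and 3.96 and 4.03 FPKM in NC, while KLF5 is at 2.33 FPKM in 1 library of each group.

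With the low-value filter removed, 8 of the 9 factors entered the fit and SOX2 was again the only one called. GATA6 then had a log2 fold change of 0.86 ± 0.520 (SE, edgeR adjusted p 0.351) and TP63 one of -1.10 ± 0.921 (SE, edgeR adjusted p 0.583). By abundance SOX2 stood at percentiles 77.8 and 79.3 of the detected genes in the REEP6 libraries, against 65.8 and 66.8 in the NC libraries. FOXA2 stood at 80.5 and 82.2 with REEP6 and at 77.4 and 78.7 in NC, and TP63 at 3.30 and 5.07 with REEP6 and at 3.65 and 16.9 in NC.

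The squamous keratins and most of the junction genes listed with them were also at or near 0, which goes against the squamous label of the line. Of 18 squamous keratin and junction genes, 12 stayed under 0.1 FPKM in every library and 5 of them, KRT6A, KRT6B, KRT13, KRT4 and DSG3, had 0 counts throughout. The basal keratin gene KRT5 had 2 and 2 counts in the REEP6 libraries and 0 and 0 in the NC libraries, and its partner KRT14 had 0 and 0 counts with REEP6 and 0 and 6 in NC. Those 6 counts were in the same library, NC replicate 2, as the 14 counts of TP63, and that library was the deepest. Other listed genes with few counts varied: DSC3 also peaked there, with 3 counts, while TRIM29 had 7 counts in NC replicate 1 and 2 in NC replicate 2. Most genes of cornification were silent too, with 13 of 17 at 0 counts in all libraries, but FLG, TGM1 and CNFN were detected. FLG ranged from 0.660 to 1.37 FPKM and TGM1 from 0.352 to 0.625 FPKM. CNFN, the 1 member tested, had 26 and 26 counts with REEP6 (3.26 and 3.24 FPKM), against 16 and 14 in NC (2.06 and 1.53 FPKM). It was not called (log2 fold change 0.89, edgeR adjusted p 0.160). The 3 tested members of the keratin and junction list were PERP, ITGB4 and LAMB3, which are not confined to squamous cells, and 2 were called higher and 0 lower. PERP, a p53 family target of desmosomes, averaged 191 ± 20.1 FPKM in REEP6 cells and 189 ± 26.5 FPKM in NC cells and was not called. ITGB4, the integrin beta 4 of hemidesmosomes, rose by a log2 fold change of 0.44 ± 0.0935 (SE, edgeR adjusted p 0.00943), a call that ended with scaling to equal FPKM sums (edgeR adjusted p 0.0537), where 0 members of the list passed. LAMB3, a laminin chain gene of the basement membrane, rose by a log2 fold change of 0.50 ± 0.156 (SE, edgeR adjusted p 0.0431), and its call ended without any 1 of the 4 libraries (edgeR adjusted p 0.0652 to 0.228), with equal FPKM sums, with library totals only, with DESeq2 and with limma. Without any 1 library the 2 calls of the list became 1.

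Other factors of surface epithelia were present in part. Of 17 on the list 4 were tested, 1 was called higher and 0 lower. TFAP2C, an AP-2 factor of ectoderm and placenta, averaged 36.2 ± 1.55 FPKM in REEP6 cells and 37.6 ± 1.12 FPKM in NC cells, and KLF4, a zinc-finger factor of differentiating epithelium, 25.8 ± 4.32 FPKM in REEP6 cells and 20.8 ± 2.48 FPKM in NC cells. Neither was called, though KLF4 was higher with no low-value filter (edgeR adjusted p 0.0113) and with the replicate block (edgeR adjusted p 9.38e-06). The log2 fold change of KLF4 ran from 0.16 without REEP6 replicate 2 to 0.49 without NC replicate 2 or without REEP6 replicate 1. The homeobox gene PITX1 rose by a log2 fold change of 0.59 ± 0.142 (SE, edgeR adjusted p 0.0156), though not without REEP6 replicate 2 (edgeR adjusted p 0.0643), where 0 members passed. Unlike the keratins, most genes listed as p63 targets or partners, many of which other cells also use, were expressed. Of these, 1 of 17 in the files stayed under 0.1 FPKM and 12 were tested. Of the 12, 5 rose and 5 fell (10.9% and 14.2% over all tested genes), and the median log2 fold change was 0.08. The integrin gene ITGA6, the most abundant, was at 43.3 and 44.1 FPKM in the REEP6 libraries and 48.5 and 46.8 FPKM in the NC libraries and was not called. Without REEP6 replicate 1 this list had 2 members higher and 3 lower, without NC replicate 2 there were 3 higher and 4 lower, without REEP6 replicate 2 there were 5 higher and 3 lower, and with equal FPKM sums 3 higher and 5 lower. The receptor gene NOTCH1 rose 2.24-fold, with 13.5 and 14.1 FPKM in the REEP6 libraries against 6.73 and 5.82 FPKM in the NC libraries, and the antiproliferative gene BTG2 fell by 1.37 on the log2 scale. TP73, the p63 paralog, was under the filter with 73 and 69 counts in the REEP6 libraries and 38 and 38 in the NC libraries. With no filter it was called higher (log2 fold change 1.02 ± 0.285 SE, edgeR adjusted p 0.00437).

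In place of squamous keratins the cells carried KRT7, KRT8 and KRT18 of simple epithelium, but not KRT19, with 1 and 0 counts in the REEP6 libraries and 0 and 4 in the NC libraries, or KRT20, with 0 counts throughout. KRT8 was at 183 and 178 FPKM in the REEP6 libraries and 164 and 177 FPKM in the NC libraries, and KRT18, its partner, at 221 and 231 FPKM with REEP6 and 178 and 182 FPKM in NC. Of 15 simple epithelial genes 5 were tested and KRT18 was the only one called, higher by 0.36 ± 0.0813 on the log2 scale (SE, edgeR adjusted p 0.0123). That call ended with limma (adjusted p 0.0524 on log2(FPKM + 1)), with equal FPKM sums (edgeR adjusted p 0.0961) and without REEP6 replicate 2 (edgeR adjusted p 0.0773). EPCAM, an epithelial surface adhesion gene, was at 1.83 and 2.36 FPKM in the REEP6 libraries and 0.957 and 1.36 FPKM in the NC libraries. It was not called (edgeR adjusted p 0.0549) but passed without NC replicate 2 (edgeR adjusted p 0.0268), where 3 members of the list were higher. The E-cadherin gene CDH1 and the epithelial GTPase gene RAB25, like KRT19 and KRT20 named after their values were seen, had 1 count each over all 4 libraries. VIM, the intermediate filament gene of mesenchymal and many cultured cells, averaged 291 ± 3.66 FPKM in REEP6 cells and 215 ± 15.2 FPKM in NC cells, and rose by 0.46 ± 0.0885 on the log2 scale (SE, edgeR adjusted p 0.00571). Of 11 mesenchymal genes 8 were tested, and 2 were higher (VIM and PRRX1) and 1 lower (ZEB2), or 2 and 3 with equal FPKM sums. The counts also shifted when some single libraries were left out. ZEB2 had the smallest p of the list, with a log2 fold change of -1.30 ± 0.146 (SE, edgeR adjusted p 0.000669). It passed the filter through the NC libraries alone (1.46 and 1.49 FPKM, against 0.512 and 0.666 with REEP6). FN1 was not called (log2 fold change -0.29, edgeR adjusted p 0.0608), and CDH2 had 0 counts in every library.

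Although NEUROD1 and INSM1 were near or at 0 counts, part of the neuroendocrine secretory apparatus was abundant. Of 28 effector genes 8 stayed under 0.1 FPKM, 3 of them (GRP, ELAVL4 and INA) at 0 counts, and 15 were tested. Of the 15, 2 were called higher (SEZ6, log2 fold change 0.61, and ENO2, 0.57) and 7 lower, with a median log2 fold change of -0.41. Over all tested genes 10.9% were called higher and 14.2% lower. The 7 lower calls stayed 7 in number without any 1 library and with equal FPKM sums, and the higher ones were 3 without NC replicate 1 and 1 without REEP6 replicate 2 or with equal FPKM sums. The granin gene SCG2 was at 188 and 172 FPKM in the REEP6 libraries and 363 and 371 FPKM in the NC libraries, and fell by 1.00 on the log2 scale (edgeR adjusted p 0.000203). The exocytosis genes SNAP25 and SYT1 fell by 0.88 and 1.23, and the prohormone convertase gene PCSK1 by 0.56. Chromogranin A (CHGA) averaged 29.5 ± 5.05 FPKM in REEP6 cells and 24.9 ± 3.05 FPKM in NC cells, and synaptophysin (SYP) 9.01 ± 1.10 FPKM in REEP6 cells and 9.31 ± 0.649 FPKM in NC cells, and neither was called. CHGA was called higher with no low-value filter (edgeR adjusted p 0.0492) and with the replicate block (edgeR adjusted p 0.000528). Its log2 fold change ran from 0.08 without REEP6 replicate 1 to 0.45 without REEP6 replicate 2. Summed over the list the level was 457 and 434 FPKM in the REEP6 libraries, against 720 and 728 FPKM in the NC libraries. Most of that difference was SCG2, and without it the sums were 269 and 262 FPKM in the REEP6 libraries, against 357 and 357 FPKM in the NC libraries. In bulk RNA fewer cells of a type and less RNA per cell cannot be told apart.

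**Figure D3:**
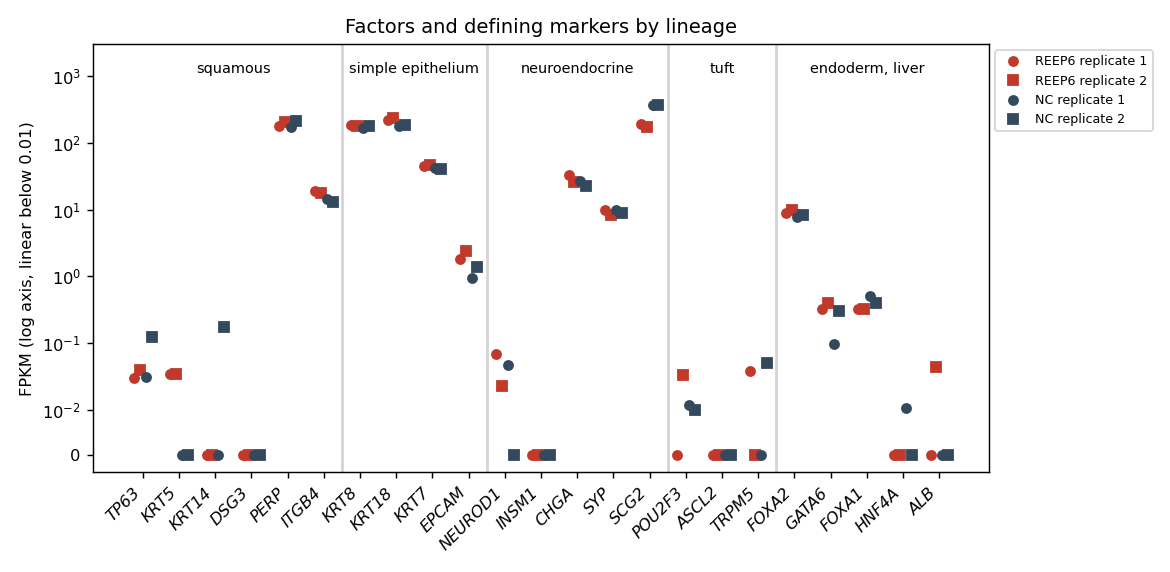
FPKM of the factors beside defining markers and abundant genes of their lineages, on a log axis that is linear below 0.01 (REEP6 libraries red, NC libraries dark grey, circles replicate 1, squares replicate 2). KRT8, KRT18, CHGA, SYP and SCG2 are far above 1 FPKM in every library, while TP63, KRT5, KRT14, DSG3, NEUROD1, INSM1 and HNF4A are at or near 0.

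Neuroendocrine factors other than the 9 were mostly silent as well. Of 23 on the list 10 had 0 counts in every library and 5 were tested, with 0 called higher and 1 lower. POU3F2, a POU factor of neurons, was at 15.7 and 13.7 FPKM in the REEP6 libraries and 12.2 and 13.8 FPKM in the NC libraries. It was not called, except as higher with the replicate block (edgeR adjusted p 0.0216). The gene called lower was REST, a repressor of neuronal genes in other cells, with 9.53 and 10.7 FPKM in the REEP6 libraries against 14.5 and 16.2 FPKM in the NC libraries (log2 fold change -0.58 ± 0.0979 SE, edgeR adjusted p 0.00337).

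**Figure D4:**
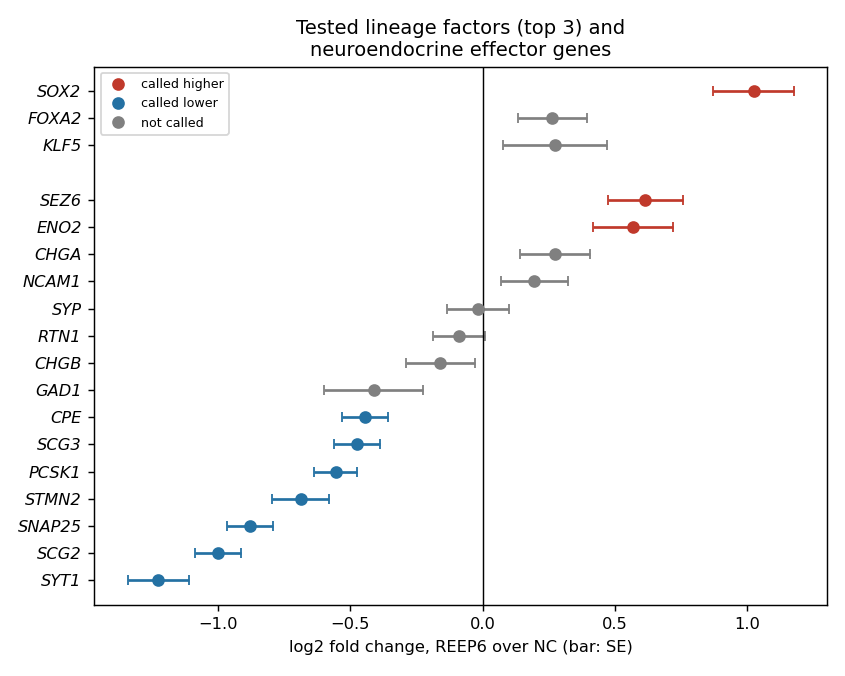
Log2 fold change of REEP6 over NC with its SE for the 3 tested lineage factors and the 15 tested neuroendocrine effector genes (red called higher, blue called lower, grey not called). SOX2 is at 1.02, and the effector genes run from 0.61 for SEZ6 to -1.23 for SYT1.

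Most listed tuft cell genes and liver and gut effector genes were near 0, while some endodermal factors besides FOXA2 were expressed. Of 18 tuft cell genes in the files 11 stayed under 0.1 FPKM, including ASCL2 at 0 counts and the channel gene TRPM5 with 2 and 0 counts in the REEP6 libraries and 0 and 3 in the NC libraries. Of the 5 tested, 2 were higher and 2 lower, or 1 lower without REEP6 replicate 2. SOX9, a progenitor factor that tuft cells share with many epithelia, rose by 0.74 ± 0.120 on the log2 scale (SE, edgeR adjusted p 0.00273), with 28.1 and 36.0 FPKM in the REEP6 libraries against 18.6 and 20.3 FPKM in the NC libraries. KIT, a receptor tyrosine kinase gene, fell by 1.18. The others called were DCLK1, a kinase gene used as a tuft marker in mouse gut, and AVIL, the actin-binding advillin gene. DCLK1 was higher by 0.79 (edgeR adjusted p 0.0106), at 1.32 and 1.38 FPKM with REEP6 against 0.687 and 0.901 FPKM in NC. It passed the filter through the REEP6 libraries alone, the group where it was high. AVIL was lower, with 1.06 and 1.01 FPKM in the REEP6 libraries against 1.97 and 1.74 FPKM in the NC libraries (edgeR adjusted p 0.0141). Its log2 fold change was -0.81, and -0.76 without REEP6 replicate 2. With limma at each pseudocount neither DCLK1 nor AVIL was called. Of 26 liver and gut effector genes 2 were tested and 0 called by edgeR, DESeq2 or limma (TFF3, a trefoil peptide gene, had an unadjusted edgeR p of 0.016, and 1 gene was called lower by edgeR without NC replicate 2 or with equal FPKM sums), and 17 stayed under 0.1 FPKM, with albumin (ALB) at 0 and 2 counts in the REEP6 libraries and 0 and 0 in the NC libraries. Of 23 endoderm and gut factors 8 stayed under 0.1 FPKM and 6 were tested, namely SOX9, KLF4, TBX3, NKX6-3, HHEX and PROX1. Of these 1 was higher (SOX9, also on the tuft list) and 0 lower, with 2 higher without NC replicate 2 or without REEP6 replicate 1, and 1 lower with equal FPKM sums. FOXA1, the close paralog of FOXA2, was at 0.323 and 0.321 FPKM in the REEP6 libraries and 0.508 and 0.396 FPKM in the NC libraries, so FOXA2 was expressed with little of its usual partner or of HNF4A.

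Some paralogs of the 9 factors were expressed where the factor itself was near 0. Of 25 listed 10 were tested, with 2 called higher and 1 lower and a median log2 fold change of -0.02. That was near the 25.0% called over all tested genes. POU2F2, 1 of the 2 called higher (log2 fold change 0.66, edgeR adjusted p 0.0336), passed the filter through the REEP6 libraries alone, the group where it was high. Its level was 1.17 and 1.10 FPKM with REEP6, against 0.677 and 0.790 FPKM in NC. The 2 higher calls became 1 without NC replicate 1 or without either REEP6 library, and 0 with equal FPKM sums. All 4 of the listed SOX genes (SOX1, SOX3, SOX14 and SOX21) had 0 counts, so that SOX2 had no detected paralog among them. Of the GATA family, GATA2, a factor of blood, endothelial and neural cells, was the most abundant listed. It was at 21.0 and 20.4 FPKM in the REEP6 libraries and 29.1 and 27.9 FPKM in the NC libraries. GATA2 fell by 0.43 ± 0.0858 on the log2 scale (SE, edgeR adjusted p 0.00695). GATA3 was at 5.47 and 6.48 FPKM with REEP6 and 7.09 and 7.18 FPKM in NC, while GATA6 was below 0.5 FPKM. POU2F1, a paralog of POU2F3, was at 5.81 and 7.07 FPKM with REEP6 and 6.86 and 7.57 FPKM in NC. Neither GATA3 nor POU2F1 was called. KLF6, a broadly expressed zinc-finger factor, was at 44.0 and 40.7 FPKM with REEP6 and 35.9 and 34.0 FPKM in NC, far above KLF5. Its call (log2 fold change 0.30, edgeR adjusted p 0.0312) ended with equal FPKM sums (edgeR adjusted p 0.224), with limma at a pseudocount of 1 (adjusted p 0.0833), without NC replicate 2 (edgeR adjusted p 0.0699) and without REEP6 replicate 1 (edgeR adjusted p 0.247).

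Some markers of other cell types also differed between the groups. Of 10 fibroblast markers 4 were tested and all 4 were called lower, though fewer without NC replicate 1 or REEP6 replicate 1. POSTN, 1 of the 4, passed the filter through the NC libraries alone (1.57 and 1.70 FPKM, against 0.456 and 0.289 with REEP6). PDGFRA, not tested, was higher in the REEP6 libraries (0.986 and 1.06 FPKM, against 0.663 and 0.709 in NC), and COL1A1, not tested, was lower. The summed level of the list was 18.1 to 18.3 FPKM in the REEP6 libraries against 34.5 to 36.6 FPKM in the NC libraries. LUM, a collagen-binding proteoglycan, fell by 2.60 on the log2 scale and COL3A1 by 0.71, whereas FAP had 0 counts and DCN 2 counts over all 4 libraries. Of the endothelial, leukocyte and melanocyte markers 0 were tested, with summed levels of at most 0.548, 0.605 and 1.65 FPKM. Most of the endothelial sum in NC was PECAM1, with 33 and 31 counts there, against 4 and 5 counts in the REEP6 libraries. What part any of this had in the SOX2 difference was not tested.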

How the data were processed

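RNA-seq tables of 4 SCC-15 libraries were used, 2 labelled REEP6 and 2 labelled NC, grouped by sample title. Per the file headers, the authors deposited raw counts and FPKM per gene. The submitters' processing notes list HISAT2, HTSeq 0.13.5 and GRCh38 without saying what each did. FPKM recomputed from the count and the total of the count column gave 1 length per gene for 100% of 29161 genes within 0.0001 (relative), and the lengths equalled the exonic bases in GENCODE 29 (within 1%) for 99.98% of them and for all 8 members with a count. All 51103 identifiers matched GENCODE 29.

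Genes with at least 1 FPKM in at least 2 libraries (13077) were fitted on counts with edgeR 4.0.16 in R 4.3.3 (TMM, quasi-likelihood test, group as the only term, two-sided, Benjamini-Hochberg over all tested genes, threshold 0.05). The SE is the log2 fold change over the square root of F. Exact permutation of 2 against 2 libraries, whose smallest two-sided p is 0.333, was not used. The scripts were tested on simulated data. Alternatives were limma 3.58.1 on log2(FPKM + 1, 0.1 or 5), DESeq2 1.42.0, other filters and scalings, each library left out and a replicate block. The members and gene lists were chosen with earlier results of these data known. A few genes of the lists are not reported here and were left out of their counts. Named genes are all members, REEP6, up to 6 of the most abundant and up to 4 of the most significant genes of each list, and defining markers; others are named where a count was small. Of the upstream sequences in the RefSeq table (GRCh38.p14), 6 members had an entry.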

Additional observations from a re-analysis of the deposited data

How the results depend on the processing

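SOX2 stayed higher and called in all 15 alternatives, with log2 fold changes from 0.53 (limma on log2(FPKM + 5)) to 1.07 (without REEP6 replicate 1) and adjusted p-values up to 0.0223 (limma on log2(FPKM + 0.1)). FOXA2 and KLF5 kept a positive sign and were called in 0 of 15 and 0 of 14 alternatives, with log2 fold changes of 0.13 to 0.33 and 0.08 to 0.47. Among genes not called, PERP changed sign with equal FPKM sums (-0.084) and ranged from -0.094 to 0.22 without 1 library, KRT8 changed sign with equal FPKM sums (-0.023), and without 1 library TFAP2C ranged from -0.079 to 0.023 and SYP from -0.16 to 0.11. The members called stayed at 1 higher and 0 lower throughout. Over all genes, 1422 were higher and 1853 lower. The number higher was 936 with a minimum of 5 FPKM, where fewer genes are tested, and 634, 597 and 642 with limma at pseudocounts of 1, 0.1 and 5. The number lower was 1233 with limma at 0.1. Scaling to equal FPKM sums gave 661 higher and 2824 lower (19.0% higher against 43.4%) and shifted the median log2 fold change by -0.13, with SOX2 at 0.89. The cause of these differences was not tested. Leaving out 1 library gave 940 to 1495 higher and 1272 to 1718 lower, the 940 without REEP6 replicate 1. The replicate block gave 2960 higher and 3062 lower. Same-numbered libraries deviated together (r = 0.38 over 13077 genes, 2 pairs), but the labels do not say that the numbers pair the samples. The 6 members under the filter had 0 to 21 counts a library, which limits what could be shown, and with no filter none of the 5 with a count was called.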
